A study of Rattus norvegicus with 6 samples.

Results

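The wound mitogens examined here are 10 genes of the EGF and FGF families: the ligands Hbegf, Areg, Ereg and Tgfa with their receptor Egfr, and the ligands Fgf2, Fgf7 and Fgf10 with the receptors Fgfr1 and Fgfr2. They were listed by name, and their probes were found through the gene symbols of the platform annotation. Of the 10 genes, 9 had 1 probe each, among 22517 probes in all, and Fgfr1 had no probe with its symbol and was not analysed here. Total RNA came from granulation tissue, the vascular repair tissue that fills a wound. It had grown into implants of cellulose with a hydroxyapatite coating, which had been implanted subcutaneously in 10-week-old Sprague-Dawley rats. Implants from 3 rats were taken at 24 hours (day 1, rats 1, 2 and 3) and from 3 other rats at 72 hours (day 3, rats 6, 4 and 7), and each RNA was hybridised to a 1-colour Illumina bead array. The labels name no untreated skin and no implant without the coating, so each value below compares 2 times of the same kind of implant.

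EGF-family ligands are made as precursors anchored in the cell membrane, and proteases called sheddases cut them free. The released ligand binds ErbB receptors, of which Egfr is the best known. FGF ligands bind FGF receptors together with heparan sulphate, a sugar chain carried by cell-surface proteoglycans such as syndecans and glypicans. Both receptor families signal through Ras and the kinase ERK to drive division and migration. In skin wounds, Hbegf, Tgfa, Areg and Ereg act on keratinocytes and fibroblasts, Fgf2 acts on fibroblasts and endothelial cells, and Fgf7 and Fgf10 are products of mesenchymal cells that act on epithelial cells through Fgfr2.

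Egfr was the only member whose signal changed between the days by the test used, and it rose. None of the ligands that could be tested, which were Hbegf, Ereg, Tgfa, Fgf2 and Fgf7, passed the test, although Hbegf and Ereg had lower and Fgf7 higher means at day 3, and the lowest unadjusted p among them was 0.0664, for Ereg. Areg, Fgf10 and Fgfr2 lay below the array median on all 6 arrays and were not tested. Probes entered the test if at least 3 of the 6 arrays gave a signal over that array's median, and the threshold was a Benjamini-Hochberg adjusted p of 0.05 over the 11591 probes tested with limma. Of the 6 tested members, 1 passed, against 31.9% of all tested probes (16.7% higher and 15.2% lower at day 3). Day 1 and day 3 values were fully apart for 1 of the 6 tested members, against 49.4% of all tested probes. The median change was 0.13 on the log2 scale over the 6 tested members and -0.05 over all tested probes.

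**Figure D1:**
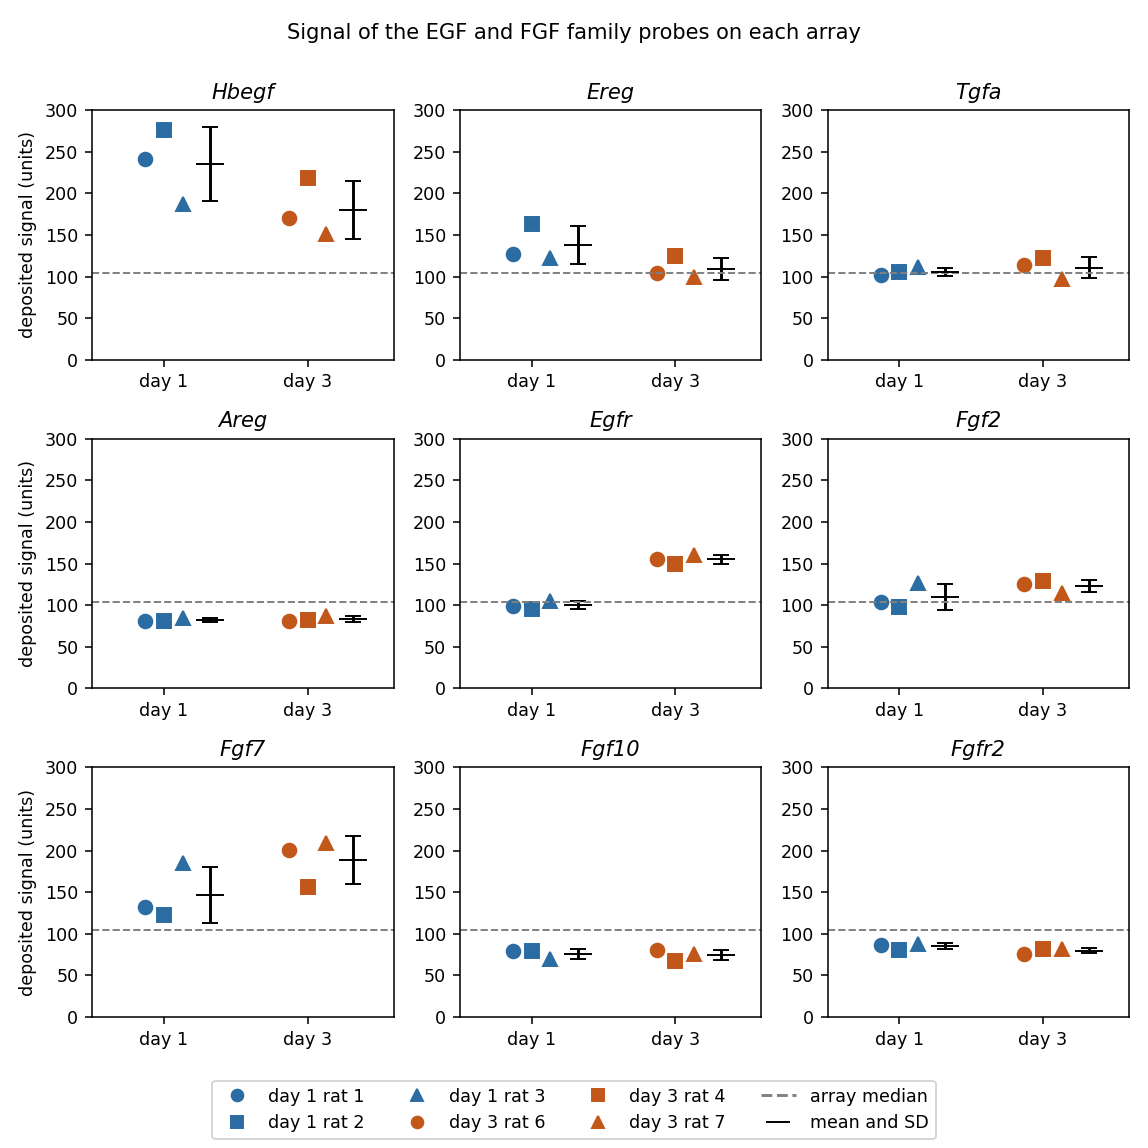
Deposited signal, in the arrays' linear units, of the 9 member probes on each array; each point is 1 rat, the black bars are the mean and SD of 3 rats, and the dashed line is the array median of 104. The Egfr points of the days are apart, those of Hbegf, Ereg and Fgf7 overlap, and Areg, Fgf10 and Fgfr2 stay under the line.

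The signals were low. The deposited values are normalized intensities with a median of 104 on every array and a lowest value of 60.6, and the highest value of any member was 276. Of these genes, Hbegf and Fgf7 exceeded the median on all 6 arrays. The change of such dim probes is compressed by background signal and by the constant (offset) of 50 added to each value before the log2 scale. The folds given here for dim probes can therefore understate changes. With an offset of 16 the fold of Egfr was 2.09, against 1.65 with 50. Of the markers with a probe of fibroblasts, macrophages, neutrophils and endothelial cells, the main cells of granulation tissue, 8 of 8, 7 of 7, 7 of 8 and 4 of 5 passed the signal filter. Levels are not compared between probes, because probes differ in how well they bind. In whole tissue, more cells of a type and more RNA per cell cannot be told apart.

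The promoters of Egfr and Fgf7 are shown because these 2 members had the largest rise that passed the test and the largest rise that did not. Each is 300 bases of the RefSeq assembly GRCr8, from 250 before to 50 after the annotated start, written in the gene's own direction. They lie at chr14:95378376-95378675 (plus strand, Egfr) and chr3:133735377-133735676 (plus strand, Fgf7). Capitals mark matches to TCCTCC on either strand, which appear as GGAGGA where the match is on the other strand.
Egfr: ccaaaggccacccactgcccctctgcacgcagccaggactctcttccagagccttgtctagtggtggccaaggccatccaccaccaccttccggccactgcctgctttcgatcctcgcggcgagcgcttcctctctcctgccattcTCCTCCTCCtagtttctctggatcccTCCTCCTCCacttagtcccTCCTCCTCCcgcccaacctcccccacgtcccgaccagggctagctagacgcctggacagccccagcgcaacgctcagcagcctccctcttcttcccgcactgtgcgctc
Fgf7: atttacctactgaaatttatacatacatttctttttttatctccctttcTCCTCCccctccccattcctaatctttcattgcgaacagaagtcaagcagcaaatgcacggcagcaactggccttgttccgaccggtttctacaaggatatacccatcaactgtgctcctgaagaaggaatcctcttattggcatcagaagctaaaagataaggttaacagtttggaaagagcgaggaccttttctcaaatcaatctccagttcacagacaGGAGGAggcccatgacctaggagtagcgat
The Egfr window held 6 overlapping matches, in 3 runs of TCCTCCTCC, and Fgf7 held 2. At least 1 match was found in 32.5% of the 33469 promoters of the same length, at least 6 matches in 0.329% and at least 3 such runs in 0.114%. The Egfr promoter is known for such TCC repeats. The Egfr window had 64.3% G or C and no TATAAA on either strand. The Fgf7 window had 43.7% G or C and no TATAAA in the gene's own direction. It held 1 match on the other strand, seen as tttata near the beginning of the printed sequence. On either strand, TATAAA was found in 14.2% of all the promoters. The median G or C content of all of them was 51.7%. The motifs were searched after the values were known, and the array measures RNA and not the promoter, so these are descriptions of the sequence.

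Egfr encodes the receptor tyrosine kinase that binds Hbegf, Areg, Ereg and Tgfa. Its deposited signal was 98.8, 95.9 and 105 in day 1 rats 1, 2 and 3, and 155, 150 and 161 in day 3 rats 6, 4 and 7. Every day 3 array lay above every day 1 array, and the 3 rats of a day lay close together. On the log2 scale the signal rose from 6.40 ± 0.08 to 7.13 ± 0.06 (SD, n = 3), a change of 0.72 ± 0.107 (SE; limma adjusted p = 0.00396). This is a rise of 1.65-fold with a 95% interval from 1.39 to 1.97. The day 1 signal of rats 1 and 2 was below the array median and that of rat 3 just above it, so the probe entered the test through its day 3 signal. With all probes tested and no such filter, its adjusted p was 0.00255. Over all 14 alternatives in which Egfr was tested, the change lay between 0.63 and 1.06, the latter with an offset of 16 (2.09-fold), and the adjusted p between 0.000198 and 0.0241. The signed change of Egfr was at or above that of 88.2% of the tested probes.

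Fibroblast, endothelial, keratinocyte and macrophage markers are given beside this rise, where 16.7% of all tested probes rose and 15.2% fell. All 8 fibroblast markers with a probe rose, and their mean log2 signal was 9.22, 9.10 and 10.69 in day 1 rats 1, 2 and 3 and 13.03, 12.72 and 12.89 in day 3 rats 6, 4 and 7. All 4 tested endothelial markers rose too, of 5 with a probe, and the mean over the list was 8.54, 7.84 and 8.63 at day 1 and 9.58, 9.49 and 9.36 at day 3, in the same order of rats. Of 9 keratinocyte and epithelial markers with a probe, Krt8 and Itgb4 rose by 0.66 and 0.69, and the other 7 were not tested because they were too dim. Krt8 exceeded the array median on 0 day 1 arrays and 3 day 3 arrays, so it entered the test through day 3 alone (limma adjusted p = 0.0157 with no filter). The untested 7 include Krt14, Cdh1 and Epcam, which mark epithelial cells, and Krt1 and Krt10, keratins of differentiating epidermis. Krt14 had 6.27 at day 1 and 6.23 at day 3 against an array median of 6.47. Krt1 had 6.11 at day 1 and 6.15 at day 3. Krt10 had 6.12 at day 1 and 6.54 at day 3, with no overlap between the days, and exceeded the median on 2 day 3 arrays (adjusted p = 0.0434 with no filter). Of 7 macrophage markers with a probe, 4 rose and 1 fell. The part of a change in cell makeup in the rise of Egfr was not tested.

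The genes whose pattern over the 6 arrays was most like that of Egfr were Lrrc17, Ift81 and Prc1, among 8346 named genes. Their Pearson correlations with Egfr were 0.999, 0.999 and 0.998. Lrrc17, a secreted leucine-rich repeat protein, rose by 4.09, Ift81, a protein of transport in cilia, by 1.20, and Prc1, a protein of the mitotic spindle, by 2.25 (limma adjusted p = 0.000278, 0.00136 and 0.000345). A correlation of 0.9 or more was reached by 1329 genes, since any gene that is higher at day 3 with 2 separate and tight groups of 3 arrays gives one.

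**Figure D2:**
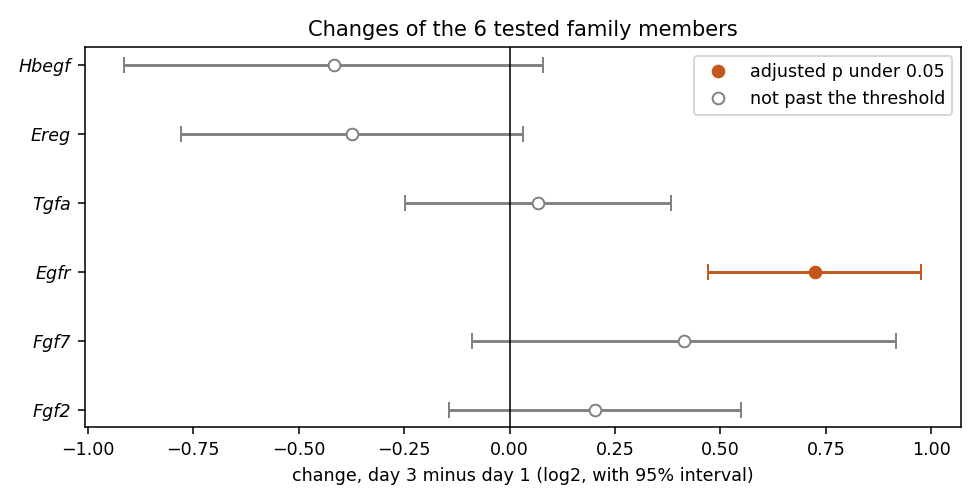
Change of the 6 tested members from day 1 to day 3 on the log2 scale, with 95% intervals from limma (n = 3 rats a day). The interval of Egfr lies from 0.47 to 0.98, and the intervals of the 5 ligands include 0.

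Hbegf encodes a ligand of Egfr that also binds heparan sulphate. Its deposited signal was 242, 276 and 188 in day 1 rats 1, 2 and 3 and 171, 218 and 151 in day 3 rats 6, 4 and 7. The days overlapped, because day 1 rat 3 lay below day 3 rat 4. The log2 signal was 7.76 ± 0.30 at day 1 and 7.34 ± 0.30 at day 3 (SD, n = 3), a change of -0.42 with a 95% interval from -0.91 to 0.08 (limma adjusted p = 0.171). Without day 1 rat 3 the change was -0.58 and passed the test (adjusted p = 0.0474), and over all 15 alternatives the adjusted p lay between 0.0474 and 0.422. Neutrophil markers moved the same way as the mean of Hbegf: 6 of 7 tested fell, against 15.2% of all tested probes. The mean log2 signal of the 8 with a probe went from between 9.89 and 10.29 at day 1 to between 8.14 and 8.51 at day 3. The part of neutrophils in the lower mean of Hbegf was not tested.

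Ereg encodes epiregulin, a ligand of Egfr and Erbb4, and in the rat assembly it is the direct neighbour of Areg. Its deposited signal was 127, 164 and 122 in day 1 rats 1, 2 and 3 and 104, 124 and 99.2 in day 3 rats 6, 4 and 7. Day 1 rat 2 was the highest and the other values ran into each other. The log2 signal was 6.92 ± 0.26 at day 1 and 6.55 ± 0.20 at day 3 (SD, n = 3), a change of -0.37 with a 95% interval from -0.78 to 0.03 (limma adjusted p = 0.141). Areg, its neighbour, encodes amphiregulin. The deposited signal of Areg was 81.0, 80.5 and 85.0 at day 1 and 81.1, 81.6 and 86.9 at day 3, and its log2 difference was 0.02. The values of Areg were below the array median in every rat, where a difference can hardly show, and its probe lay at the 15.1 percentile of signal over all probes.

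Tgfa encodes another ligand of Egfr, made by keratinocytes and macrophages. Its deposited signal was 101, 105 and 111 in day 1 rats 1, 2 and 3 and 113, 122 and 97.1 in day 3 rats 6, 4 and 7. The lowest and the highest value were both from day 3. The log2 change was 0.07 with a 95% interval from -0.25 to 0.38 (limma adjusted p = 0.728), and it was -0.015 without day 3 rat 4. The signal of Tgfa lay near the array median on every array, where changes are compressed.

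Fgf2, basic fibroblast growth factor, had a deposited signal of 104, 97.8 and 127 in day 1 rats 1, 2 and 3 and of 126, 129 and 115 in day 3 rats 6, 4 and 7. Day 1 rat 3 lay among the day 3 arrays. The log2 change was 0.20 with a 95% interval from -0.14 to 0.55 (limma adjusted p = 0.328). With arrays weighted by quality the change was 0.27 and passed the test (adjusted p = 0.0459), and over its 14 alternatives the adjusted p reached 0.626.

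Fgf7, keratinocyte growth factor, is made by fibroblasts. Its deposited signal was 132, 123 and 186 in day 1 rats 1, 2 and 3 and 200, 156 and 210 in day 3 rats 6, 4 and 7. Day 1 rat 3 lay above day 3 rat 4, and the days overlapped there. The log2 signal was 7.01 ± 0.35 at day 1 and 7.42 ± 0.25 at day 3 (SD, n = 3), a change of 0.41 with a 95% interval from -0.09 to 0.92 (limma adjusted p = 0.179). Without day 1 rat 3 the change was 0.61 and passed the test (adjusted p = 0.0259), as did 0.47 with array weights (adjusted p = 0.0311), and over its 15 alternatives the adjusted p lay between 0.0259 and 0.403. The array of day 1 rat 3 also had the highest fibroblast mean of its day, given above, and a mean of 10.34 over 7 skeletal muscle markers, against 7.12 and 7.61 in rats 1 and 2. Among day 3 arrays rat 6 had the highest muscle mean, 10.04 against 7.47 and 6.78. Without both of these arrays the change of Fgf7 was 0.56 (adjusted p = 0.0748).

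Fgf10 and the receptor Fgfr2 stayed at the low end of the arrays. The deposited signal of Fgf10 was 79.7, 79.7 and 69.1 at day 1 and 79.9, 67.5 and 75.7 at day 3, at the 1.87 percentile of signal. That of Fgfr2 was 86.6, 80.9 and 87.7 at day 1 and 75.9, 81.2 and 81.8 at day 3, at the 14.2 percentile. The days overlapped for both genes, and no change was detectable at this signal. Fgfr2 has splice forms that differ between epithelial and mesenchymal cells, and 1 probe cannot speak for each of them.

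The 3 members Hbegf, Ereg and Fgf7 ordered the 6 arrays alike. From highest to lowest Hbegf, the arrays were those of rats 2 and 1 (day 1), then rat 4 (day 3), then rat 3 (day 1), then rats 6 and 7 (day 3). Ereg followed the same order and Fgf7 the exact reverse. The order crossed the days, with day 3 rat 4 on the day 1 side of day 1 rat 3. For these 3 genes it also held after cyclic loess normalization. Among the 11591 tested probes, 58 had the order of Hbegf and 37 the reverse, 0.820% together. Of 9 marker lists, the macrophage list alone followed the order of Fgf7 in its mean log2 signal. That mean was 9.17, 9.49, 10.33, 10.42, 10.91 and 11.31 along the arrays as listed. Taken singly, Cd163 and Mrc1 followed this order, and C1qa, C1qb, C1qc, Adgre1 and Cd14 did not. The summed deposited signal of the macrophage list did not follow it either, and was lowest in day 3 rat 4 (15130). The pattern was noticed in the values and not tested.

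**Figure D3:**
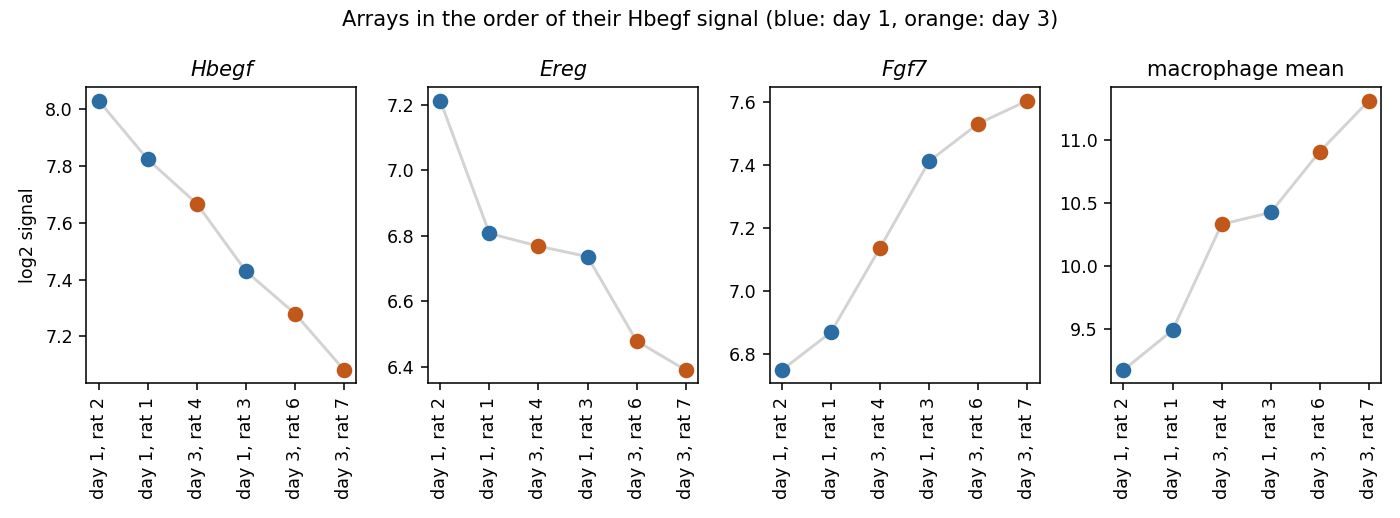
Log2 signal of Hbegf, Ereg and Fgf7 and the mean log2 signal of 7 macrophage markers, with the 6 arrays of each panel placed from the highest to the lowest Hbegf (blue day 1, orange day 3; each panel has its own vertical axis, which does not start at 0). Hbegf and Ereg descend and Fgf7 and the macrophage mean ascend without exception, and day 3 rat 4 stands to the left of day 1 rat 3.

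Other genes of the same pathways were read from 9 lists with 131 genes. A probe was found for 106 of these, and 61 passed the signal filter. Of the 61, 11 rose (18.0%, against 16.7% of all tested probes) and 18 fell (29.5%, against 15.2%), with a median change of -0.31. The counts were 6 and 10 without day 3 rat 6 and 8 and 10 without day 3 rat 7. The number passing among all 11591 tested probes fell too. It was 3694 with all rats, 2016 without day 3 rat 6 and 2093 without day 3 rat 7. The pathway counts were 12 and 23 without day 1 rat 3 and 14 and 26 with array weights. Of all tested probes, 4902 and 6123 passed in those fits. Without day 1 rat 3 and day 3 rat 6 together the pathway counts were 11 and 18. Of the 29 changed genes, 15 passed the test whichever single rat was left out.

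Most other ligands were too dim to test. Of 5 further EGF-family ligands with a probe, 4 exceeded the median on no array, and the tested Egf had a change of -0.05 (limma adjusted p = 0.75). Of 17 further Fgf genes with a probe, 15 exceeded the median on no array, and the tested Fgf16 had a change of 0.06 (adjusted p = 0.848). Erbb3, a receptor that pairs with other ErbB receptors and binds neuregulins, fell by 0.58, from 7.28 ± 0.03 to 6.70 ± 0.10 (SD, n = 3; adjusted p = 0.00843). Erbb2, the partner of Egfr that binds no ligand, had a change of 0.16 (adjusted p = 0.277). Among FGF receptors and binding proteins, Fgfrl1, a receptor without a kinase domain, rose by 0.88, and the other tested genes, Flrt2 and Flrt3, did not pass.

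The machinery that frees EGF ligands moved in both directions. Adam17, the main sheddase of Tgfa, Areg, Ereg and Hbegf, fell 2.39-fold, from 12.46 ± 0.32 to 11.20 ± 0.25 (SD, n = 3; limma adjusted p = 0.00519). Rhbdf1, a rhomboid-like protein that carries Adam17 to the cell surface, rose by 1.24, from 6.50 to 7.74. Rhbdf2, its relative in leukocytes, fell by 0.91 (adjusted p = 0.0492), and without day 3 rat 7 its adjusted p was 0.147. Rhbdf2 kept its call in 1 of the 6 fits that left out a single rat. Adam10 and Adam15 had changes of -0.32 and -0.06 and did not pass.

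The heparan sulphate genes, which supply the co-receptor of FGFs and a binding partner of Hbegf, had 6 rises and 3 falls among 13 tested. Of all tested probes, 16.7% rose and 15.2% fell. The core proteins split. Sdc2, a syndecan of mesenchymal cells, rose 6.26-fold, from 8.28 ± 0.88 to 10.93 ± 0.03, and Gpc4, a glypican, rose 5.35-fold, from 6.75 ± 0.53 to 9.17 ± 0.43 (SD, n = 3; limma adjusted p = 0.00414 and 0.00252). Sdc1 and Sdc4 fell by 0.92 and 1.24. Ext2 and Ndst1, enzymes of heparan sulphate synthesis, rose by 1.17 and 0.60. The sulphatases Sulf1 and Sulf2, which trim 6-O-sulphates from the chains, rose by 1.18 and 0.64. Heparanase, Hpse, which cuts the chains, fell by 1.28. The calls of Sdc1, Ndst1, Sulf1, Sulf2 and Hpse were lost when 1 rat was left out, with adjusted p of up to 0.0539, 0.0501, 0.0664, 0.131 and 0.0642, and those of Sdc2, Gpc4, Sdc4 and Ext2 were not.

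**Figure D4:**
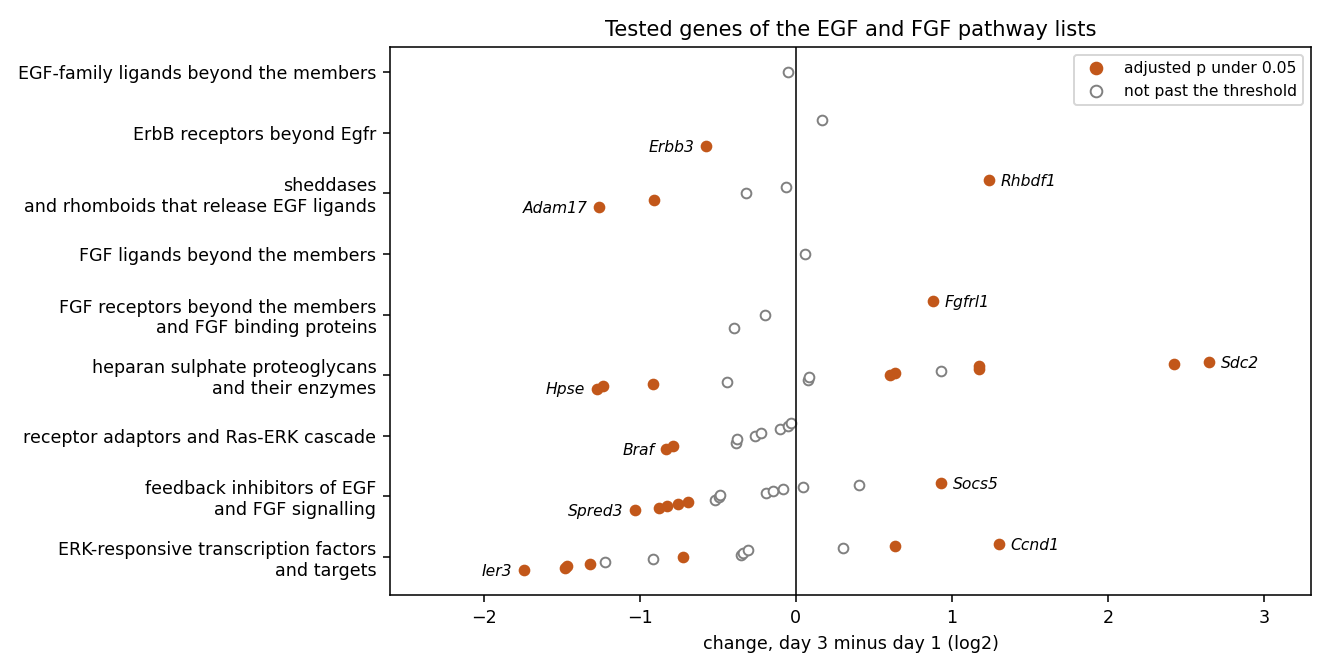
Change from day 1 to day 3, on the log2 scale, of the 61 tested genes in 9 lists of the EGF and FGF pathways; each point is 1 gene, filled where the adjusted p is under 0.05, with the outermost filled genes named. The heparan sulphate list spreads to both sides, and the feedback and ERK target lists hold 5 filled points each on the lower side.

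Downstream of the receptors, the counts below stand against 16.7% of all tested probes that rose and 15.2% that fell. Of 9 tested adaptors and members of the Ras-ERK cascade, none rose and 2 fell: Braf by 0.83 and the ERK kinase gene Map2k1 by 0.79 (limma adjusted p = 0.0348 and 0.0135). At an unadjusted p under 0.05 none rose either, and Ptpn11, Nras and Araf fell too (limma unadjusted p = 0.0338, 0.0250 and 0.0335). Without day 3 rat 6 the adjusted p of Braf and Map2k1 was 0.115 and 0.0557. Braf kept its call in 1 of the 6 fits that left out a single rat. Of 14 tested feedback inhibitors, 5 fell and 1 rose. Spred3, an inhibitor of Ras signalling, fell 2.04-fold (adjusted p = 0.0845 without day 3 rat 6), and Dusp6 and Dusp5, phosphatases that act on ERK and are induced by it, fell by 0.75 and 0.69. Socs3 and Socs4 fell by 0.82 and 0.88, and Socs5 rose by 0.93. The calls of Spred3, Dusp6, Socs3 and Socs5 were lost without some single rats, with adjusted p of up to 0.0845, 0.0743, 0.118 and 0.0686.

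Of 13 tested ERK-responsive genes, 5 fell and 2 rose. Ier3 and Ier2, immediate early genes, fell 3.34-fold and 2.78-fold, from 11.74 ± 0.52 to 10.00 ± 0.14 and from 12.07 ± 0.39 to 10.59 ± 0.34 (SD, n = 3; limma adjusted p = 0.00387 and 0.00577). Egr2 and Junb fell by 1.47 and 1.32, and Elk3 fell by 0.72. Etv4, a transcription factor gene induced by FGF signalling, rose by 0.64, and the cyclin gene Ccnd1 rose by 1.30. Etv4 exceeded the array median on 0 day 1 arrays and 3 day 3 arrays, so it too entered the test through day 3 alone (limma adjusted p = 0.00455 with no filter). Elk3 and Ccnd1 lost their calls without some single rats, with adjusted p of up to 0.127 and 0.0878. Fos and Phlda1 had changes of -0.92 and -1.23 and did not pass (adjusted p = 0.0733 and 0.0624). These genes answer to many signals besides EGF and FGF receptors, so their changes are not a readout of the members.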

How the data were processed

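The deposited table gives 1 linear intensity per probe and rat. The deposited intensity columns had been quantile normalized, since after sorting no pair differs by more than 0.535 units. The submitters' processing notes name limma without a version; any background step by the authors was not given in the sources used here. A second deposited table with signals before normalization and detection p-values was not used, because the headers of its 12 columns of per-sample values match no label.

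The values were corrected by normexp with an offset of 50 (limma 3.58.1, R 4.3.3) and put on the log2 scale without another normalization. A probe was kept where 3 or more of the 6 arrays exceeded the array median. Days were compared by lmFit and eBayes, and two-sided p-values were adjusted by Benjamini-Hochberg over the 11591 kept probes. Of the probes, 13787 have 1 gene symbol and 8730 are unnamed here. P-values measure the spread between 3 rats a day, and precision is limited by having 6 arrays.

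The members and lists were chosen with earlier results of these data known. The named genes are all members, the 2 changed genes with the largest change in each pathway list (or the tested gene with the smallest p where none changed), and the 3 genes most correlated with the changed member of largest rise; no member fell by the test. Further list genes named in the text were picked with their values in view.

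Alternatives were offset 16, log2 of the uncorrected values, cyclic loess, testing every probe, requiring all 6 arrays above the median, a robust fit with an intensity trend, weighting of arrays, a threshold of 0.01, each rat left out, and day 1 rat 3 and day 3 rat 6 left out together. Counts of changed pathway genes under each were added after seeing the data.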

Additional observations from a re-analysis of the deposited data

How the results depend on the processing

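Of the 6 tested members, 1 passed the test, and the number was 0 of 2 when all 6 arrays had to exceed the median (Egfr was then not tested), 3 with array weights and 3 without day 1 rat 3; leaving out single rats gave from 1 to 3. Egfr passed in each of the 14 alternatives that tested it. Array weights added Fgf2 and Fgf7, and leaving out day 1 rat 3 added Hbegf and Fgf7; the cause was not tested. Leaving out single rats moved the change of Tgfa from -0.015 (without day 3 rat 4, a reversal) to 0.17 (without day 3 rat 7). The count over all 11591 tested probes was 3694. It was 6123 with array weights and 4902 without day 1 rat 3, so more probes passed in all where 3 members passed. It was 1593 at a threshold of 0.01 and between 2016 and 4902 when single rats were left out. With no filter, Areg, Fgf10 and Fgfr2 had adjusted p of 0.907, 0.881 and 0.443. No paired analysis was possible because the 2 days share no rat numbers. Low signal limits these values, since Areg, Fgf10 and Fgfr2 could not be tested and changes of dim probes are compressed.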
